A study of Rattus norvegicus with 30 samples.

Results

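The interferon response genes are transcripts that a cell makes after interferon has bound its receptors, and 34 of them were chosen by name. Of these, 31 were measured, among 14217 genes on the arrays; Gbp5, Xaf1 and Ifi47 had no probe set that carried their symbol. The level of a gene was the value of its brightest probe set, in log2 units, so that a difference of 1 is a doubling of the signal. The epithelium of the oesophagus was taken from 30 male Sprague-Dawley rats, with 1 array per rat. The rats were 4 weeks old when the diets began. All had been given the oesophageal carcinogen N-nitrosomethylbenzylamine, shortened to NMBA, in 4 doses of 2 mg/kg. The doses began in week 5, and the time recorded for every rat was 15 weeks after the first dose. The genome of 20 rats was unedited. Among these, 5 ate a diet poor in zinc (ZD) and were injected with an antimiR, a locked nucleic acid that blocks miR-31, during 20 weeks, and another 5 on that diet were injected during 5 weeks. Both antimiR groups had a loading dose of 20 mg/kg and 9 doses of 6 mg/kg in the first 5 weeks, and the 20-week group had 20 more doses in the next 15 weeks. A further 5 were fed the ZD diet with no other treatment, and 5 a zinc-sufficient (ZS) diet, pair-fed to the ZD animals, with no other treatment. The other 10 rats carried a miR-31 deletion made with CRISPR/Cas9, 6 on the ZD diet and 4 on the ZS diet, and they came from a separate experiment. The untreated controls had no injections of a control oligonucleotide, wild-type littermates were not analysed here, and the labels do not say how many founder lines the knockout rats came from. The time of 15 weeks after the first NMBA dose is recorded also for the rats given antimiR for 5 weeks. Beyond that time, the labels do not state whether these rats were killed at the same age as the others.

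Type I interferons signal through a receptor whose kinases activate STAT2, which acts with IRF9 on the interferon-stimulated response element (ISRE) in promoters. Interferon gamma, the type II interferon made mainly by T cells and natural killer cells, acts on the gamma-activated site (GAS) and through IRF1, which it induces. Both inputs lead to antiviral proteins, to the immunoproteasome and peptide transporters that feed MHC class I molecules, and to GTPases that act on intracellular microbes. In the oesophagus such genes can be expressed by keratinocytes and by the leukocytes that lie among and beneath them.

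Promoter stretches of 8 members are given to show what the 2 elements look like in genes whose values are described below. They come from RefSeq on the rat GRCr8 assembly, read on the strand of the gene, and the capitals mark letters that match the ISRE form, GAAA and GAAA with any 2 bases between them, or the GAS form TTCNNNGAA, on either strand. The 2 forms can overlap, as they nearly do in Igtp and Parp14. The windows lie at chr10:42874929-42874968 (Igtp, plus strand), chr11:78408043-78408082 (Parp14, plus), chr2:234005681-234005720 (Gbp2, plus), chr10:38417778-38417817 (Irf1, plus), chr6:48788243-48788282 (Rsad2, minus), chr1:205800068-205800107 (Irf7, minus), chr1:241527267-241527306 (Ifit3, plus) and chr2:243328617-243328656 (Ifi44l, plus).
Igtp: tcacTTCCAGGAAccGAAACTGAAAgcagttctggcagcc
Parp14: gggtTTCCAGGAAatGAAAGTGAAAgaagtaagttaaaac
Gbp2: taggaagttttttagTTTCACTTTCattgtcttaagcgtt
Irf1: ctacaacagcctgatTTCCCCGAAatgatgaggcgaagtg
Rsad2: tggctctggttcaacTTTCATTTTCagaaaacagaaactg
Irf7: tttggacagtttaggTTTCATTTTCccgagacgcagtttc
Ifit3: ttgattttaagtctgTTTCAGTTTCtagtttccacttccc
Ifi44l: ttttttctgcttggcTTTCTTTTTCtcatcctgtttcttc
Of the 31 members, 26 matched a promoter entry of 250 bases before and 50 after the start site that the entry uses. That site was not always the outer end of the annotated gene. Irf7 reached to 205800543, so that its window lay inside the gene. The outer ends of Ifi44l (243328629) and Rsad2 (48788245) lay within their windows. The ISRE form was present in 14 of the 26 (53.8%), against 3.92% of 33469 rat promoters, and the GAS form in 9 of the 26 (34.6%), against 8.87%. A match describes the letters and does not show that a factor binds there.

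The array medians lay between 5.81 and 5.93 on the 10 knockout arrays and between 5.37 and 5.45 on the 20 arrays of unedited rats. Levels were therefore tested only within those sets, in which the experiment was shared, and the diet effects of both sets were compared through their difference. The squamous epithelium markers averaged 12.07 to 12.57 on every array, so the markers of the labelled tissue were present. Skeletal muscle markers varied widely between rats. Their mean ran from 4.69 to 9.51 on the arrays of unedited rats and from 7.56 to 9.88 on the knockout arrays. Smooth muscle markers differed with diet. In untreated ZD rats 11 of 12 fell relative to ZS rats, beside 6.95% of all genes, with a median change of -2.30. The part of either muscle in the values below was not tested. In bulk tissue, fewer cells of a type and less RNA per cell cannot be told apart. The number of arrays, 4 to 6 per group, limits the precision of every comparison. Each SE and p rests on a spread pooled over all 30 arrays, also for genes such as Igtp that varied more among ZS knockout rats. The words rose and fell are kept for genes whose limma adjusted p (Benjamini-Hochberg, over all 14217 genes) lay below 0.05.

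Across the comparisons of unedited rats 1 interferon response gene passed, Slfn4, which rose on the ZD relative to the ZS diet. In knockout rats 12 of 31 fell on the ZD relative to the ZS diet, beside 12.0% of all genes. Those calls were lost when 2 of the 4 ZS knockout rats were left out, arrays 32 and 33, whose interferon response genes were high. Array numbers are those of the sample titles, and these arrays were singled out with earlier results of the data known. Without those arrays no member passed, and 3.42% of all genes fell, with 2 ZS knockout rats left.

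**Figure D1:**
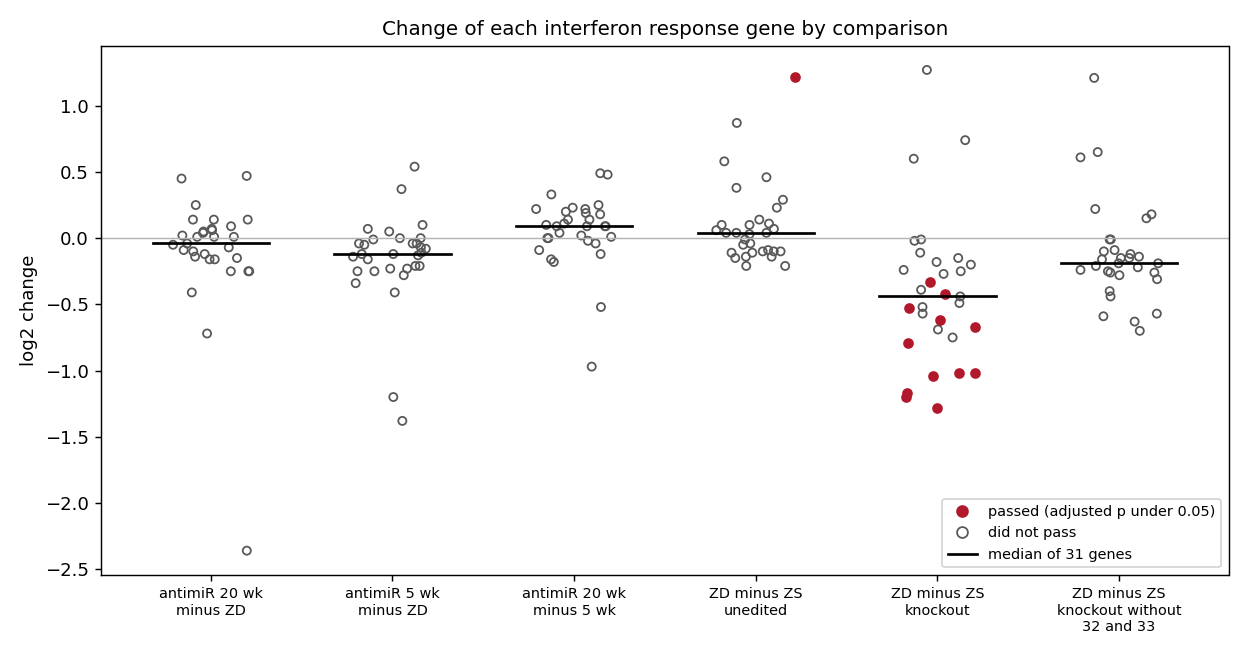
Each point is the log2 change of 1 of the 31 interferon response genes in the comparison named below it, filled where it passed an adjusted p of 0.05, with a line at the median; points are spread sideways only to separate them. The median lay between -0.12 and 0.09 in the 4 comparisons of unedited rats, at -0.44 for diet in knockout rats and at -0.19 there without arrays 32 and 33.

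The 20-week antimiR rats were set against untreated ZD rats to ask what long inhibition of miR-31 does on the deficient diet (n = 5 each). No member rose or fell with limma, where 0.162% of all genes rose and 0.485% fell, and 2108 genes, 2 of them members, had an unadjusted p under 0.05. The median change was -0.04 over the members and -0.006 over all genes. Bst2 encodes tetherin, which holds budding virus particles on the cell surface. It stood at 10.53, 10.76, 10.13, 10.09 and 10.30 on arrays 1 to 5 of the 20-week antimiR rats, against 9.95, 9.36, 10.11, 10.15 and 9.97 in untreated ZD rats. The groups overlapped, and the change of 0.45 (SE 0.17) did not pass (adjusted p = 0.182).

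Mx2, an antiviral dynamin-like GTPase, varied widely between rats of a group. It stood at 4.20, 8.68, 3.90, 3.46 and 7.10 in the 20-week antimiR rats, against 7.42, 8.23, 8.02, 8.09 and 7.36 in untreated ZD rats. Thus 4 of the 5 antimiR rats were below every untreated ZD rat, array 5 by little, and array 2 was above all of them, and the change of -2.36 (SE 0.94) did not pass (adjusted p = 0.231). A second, dimmer Mx2 probe set did not follow the first (Pearson r = 0.06 over 30 arrays, both sets of arrays pooled, given as a description). Slfn4, a Schlafen family gene induced in myeloid cells of mice, stood at 5.38, 6.03, 7.22, 5.16 and 5.75 in the 20-week rats, against 6.70, 6.22, 6.65, 7.24 and 6.31 in untreated ZD rats, a change of -0.72 (SE 0.38, adjusted p = 0.379).

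After 5 weeks of antimiR, a course that ended as NMBA began, no member passed either (n = 5 each). No gene of the 14217 passed with limma (0.0%), while the unadjusted p was under 0.05 for 1021 genes, 1 of them a member. Of the members 26 of 31 had a change below 0, with a median of -0.12, against 48.5% of all genes and a median of 0.004. The member with the smallest p was Slfn4. It stood at 5.78, 5.92, 4.87, 5.58 and 4.98 in the 5-week antimiR rats, all below the untreated ZD values given above, and the change was -1.20 (SE 0.38, adjusted p = 0.49). That 1 member of 31 without overlap stood beside 0.485% of all genes.

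The protein kinase gene Eif2ak2, whose product PKR halts translation on double-stranded RNA, stood at 6.87, 7.32, 6.93, 6.98 and 6.95 in the 5-week rats, against 7.11, 7.46, 7.11, 7.48 and 7.06 in untreated ZD rats (change -0.23, SE 0.11, adjusted p = 0.698). Its 5-week array 7 lay inside the range of the untreated rats. The oligoadenylate synthetase gene Oas1a stood at 3.79, 3.76, 3.63, 3.11 and 3.49 in the 5-week rats, against 4.05, 3.80, 3.46, 4.37 and 4.12 in untreated ZD rats, with a change of -0.41 (SE 0.20, adjusted p = 0.706). Its close paralogs may share probes, so the value cannot be assigned to Oas1a alone.

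Between the antimiR groups no member passed, beside 0.00703% of all genes that rose and 0.0141% that fell, and 868 genes, 1 of them a member, were under 0.05 before adjustment. Bst2 was the member with the smallest p. It stood at 9.75, 9.92, 9.70, 9.90 and 10.09 in the 5-week rats, so that the highest 5-week and the lowest 20-week value were equal to 2 decimals, and 0.267% of all genes had 20-week values entirely above the 5-week values. The change was 0.49 in 20-week relative to 5-week rats (SE 0.17, adjusted p = 0.575). Ifi44l, an interferon-induced gene, stood at 3.42, 3.62, 3.58, 3.25 and 3.24 in the 20-week rats, against 4.98, 3.22, 3.48, 4.34 and 3.67 in the 5-week rats. The difference of -0.52 (SE 0.31, adjusted p = 0.847) did not pass, and 5-week arrays 6 and 9 were the high ones. Irf7, the transcription factor that amplifies type I interferon production, differed by 0.23 (SE 0.18, adjusted p = 0.914), with 6.35, 6.51, 7.0, 6.51 and 6.63 in the 20-week rats and 6.66, 6.57, 6.13, 6.38 and 6.08 in the 5-week rats.

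On the ZD diet alone, 1 of 31 members rose relative to ZS rats and 0 fell with limma (n = 5 each; 6.94% of all genes rose and 6.95% fell, and 2 members had an unadjusted p under 0.05). The median change was 0.04 over the members and 0.004 over all genes. Slfn4 was the member that passed. It stood at 6.70, 6.22, 6.65, 7.24 and 6.31 in ZD rats, against 5.69, 5.11, 4.63, 6.14 and 5.46 in ZS rats. Every ZD value lay above every ZS value, beside 5.91% of all genes, though ZD array 12 exceeded ZS array 19 by little, and the increase was 1.22 (SE 0.38, adjusted p = 0.0315). Slfn4 no longer passed when any 1 of arrays 11, 13, 14, 17, 18 and 20 was left out (adjusted p up to 0.0978), with a change that stayed between 1.02 and 1.23, and a dimmer second probe set did not follow the first (r = -0.22 over 30 arrays, with a difference of 0.07 between ZD and ZS rats). Of 14 measured macrophage and dendritic cell markers 1 rose, Lyz2 (1.24, adjusted p = 0.0421), and 0 fell, beside the 6.94% of all genes that rose. The median change of the 14 was 0.27, and the part of such cells in the Slfn4 value was not tested. Both antimiR comparisons and this one share the 5 untreated ZD rats, so that their Slfn4 values are not independent.

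The next members by p were PKR and an antiviral RNA-binding protein. Eif2ak2 stood at the untreated ZD values given above, against 7.06, 6.80, 6.81, 7.13 and 6.95 in ZS rats, a change of 0.29 (SE 0.11, adjusted p = 0.0881). Ifit2, which blocks translation of foreign RNA, stood at 8.87, 8.45, 9.43, 10.34 and 9.05 in ZD rats, against 8.73, 8.51, 8.70, 8.34 and 8.93 in ZS rats, a change of 0.58 (SE 0.30, adjusted p = 0.202). The ZD value of array 14 was the high point and the groups overlapped. The 5 transcription factors, Irf1, Irf7, Irf8, Irf9 and Stat2, changed by between -0.21 and 0.04, the 4 antigen processing genes by between -0.14 and 0.38, and the GTPases Gbp2 and Igtp by between -0.14 and -0.01.

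In knockout rats 12 of the 31 members fell on the ZD relative to the ZS diet, 0 rose and 19 did not pass (n = 6 and 4; 12.0% of all genes fell and 9.47% rose). The median change was -0.44 over the members, with 28 of 31 below 0. Over all genes the median was 0.005, with 49.0% below 0. By role, 6 of 15 antiviral effectors fell, 2 of 5 transcription factors, 1 of 3 regulators, 0 of 2 RNA sensors, 1 of 4 antigen processing genes and both GTPases. In only 2 members, Stat2 and Gbp2, did all 6 ZD arrays lie below all 4 ZS arrays, beside 7.15% of all genes.

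**Figure D2:**
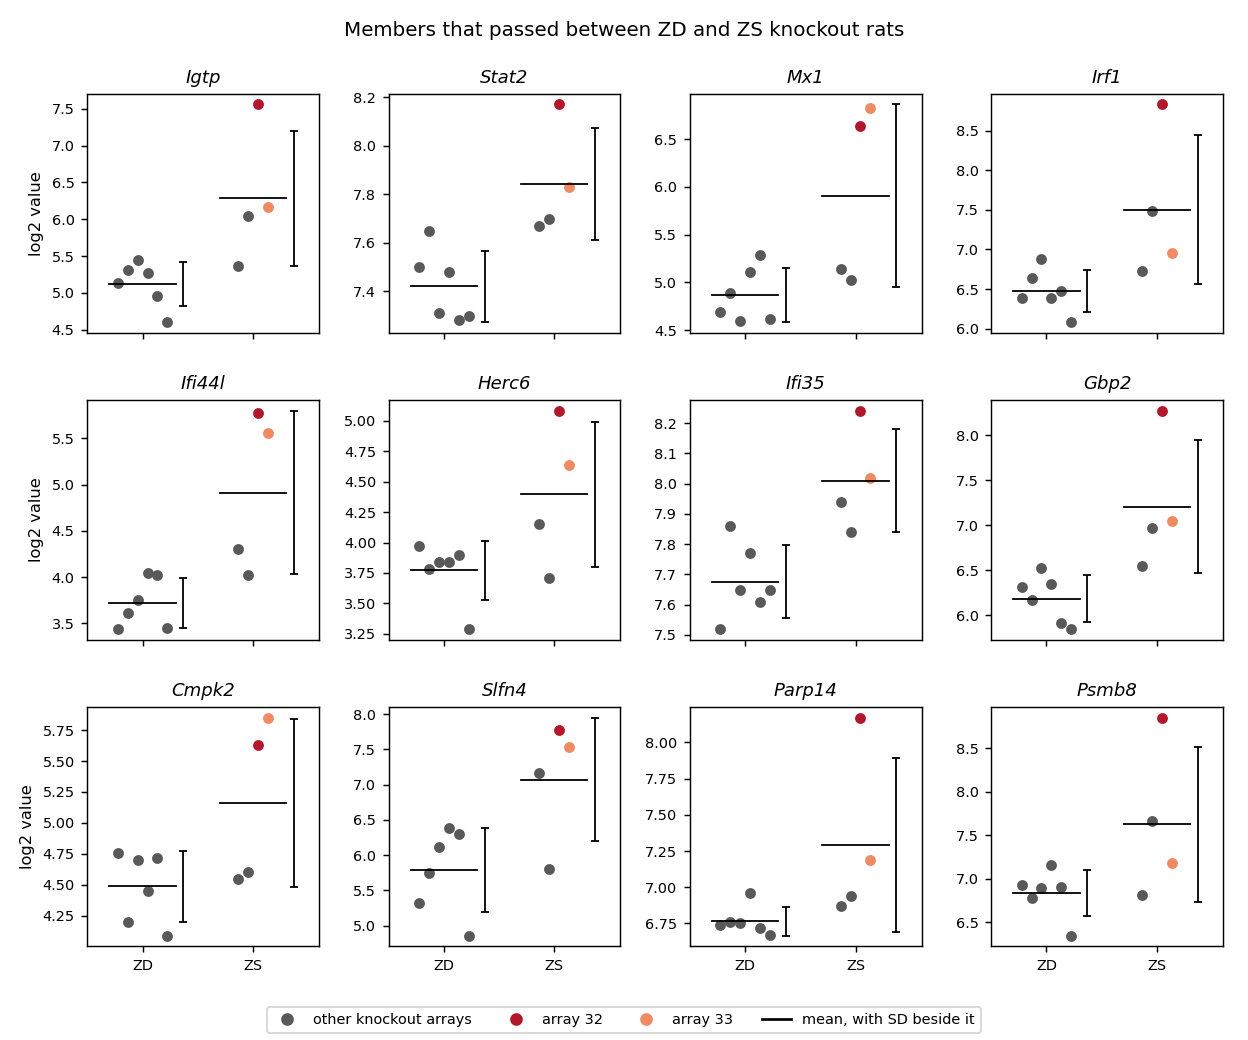
Log2 values of the 12 interferon response genes that passed, for each knockout rat on the ZD diet (6 arrays) and the ZS diet (4 arrays); the line is the group mean and the bar beside it is the SD. Array 32, array 33 or both hold the highest ZS values in every panel, and the axes do not start at 0.

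Among the transcription factors, Stat2, which acts with IRF9 in type I signalling, had a lowest, median and highest value of 7.28, 7.39 and 7.65 in ZD knockout rats, against 7.67, 7.70, 8.17 and 7.83 on ZS arrays 30 to 33. It fell by 0.42 (SE 0.09, adjusted p = 0.00163), in small steps that kept the groups apart, and its second probe set gave a difference of -0.53. Irf1, the factor induced by interferon gamma, ran from 6.08 through a median of 6.44 to 6.88 in ZD knockout rats, against 6.73, 7.49, 8.83 and 6.95 on the ZS arrays. ZS array 32 stood highest and ZS array 30 lay inside the ZD range, and the decrease was 1.02 (SE 0.26, adjusted p = 0.00571).

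Both GTPases, like Irf1, were highest on ZS array 32 and lowest on ZS array 30 among the ZS rats. Igtp, an immunity-related GTPase that guards against intracellular microbes in mice, ran from 4.60 through 5.20 to 5.44 in ZD knockout rats, against 5.37, 6.05, 7.56 and 6.17 on ZS arrays 30 to 33. It fell by 1.17 (SE 0.24, adjusted p = 0.0012), with only ZS array 30 inside the ZD range. Gbp2, a guanylate-binding protein induced by interferon gamma, ran from 5.85 through 6.24 to 6.53 in ZD knockout rats, against 6.55, 6.97, 8.27 and 7.05 on the ZS arrays. It fell by 1.02 (SE 0.29, adjusted p = 0.0125), and the highest ZD and lowest ZS value nearly met.

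Of the antigen processing genes, Psmb8, a catalytic subunit of the immunoproteasome, ran from 6.35 through 6.91 to 7.16 in ZD knockout rats, against 6.81, 7.67, 8.85 and 7.18 on the ZS arrays, and fell by 0.79 (SE 0.25, adjusted p = 0.0241). Its companion subunit Psmb9 (-0.69, adjusted p = 0.073) and the peptide transporter genes Tap1 (-0.44, adjusted p = 0.0603) and Tap2 (-0.39, adjusted p = 0.0603) did not pass. In all 4 the highest value among the ZS rats was that of array 32. Parp14, a macrodomain ADP-ribosyltransferase, ran from 6.67 through 6.75 to 6.96 in ZD knockout rats, against 6.87, 6.94, 8.17 and 7.19 on the ZS arrays, and fell by 0.53 (SE 0.16, adjusted p = 0.021).

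Among the antiviral effectors, Mx1, a GTPase that blocks viral replication, ran from 4.60 through 4.79 to 5.29 in ZD knockout rats, against 5.14, 5.03, 6.64 and 6.82 on the ZS arrays. ZS arrays 30 and 31 lay inside the ZD range and arrays 32 and 33 well above it, with a decrease of 1.04 (SE 0.26, adjusted p = 0.00508). Ifi44l had a similar split, with ZS array 30 just above the ZD range, from 3.44 through 3.68 to 4.04 in ZD knockout rats, against 4.30, 4.02, 5.77 and 5.56 on the ZS arrays (fell by 1.20, SE 0.31, adjusted p = 0.00771). Cmpk2, a mitochondrial nucleotide kinase gene next to Rsad2, ran from 4.09 through 4.58 to 4.76, against 4.55, 4.60, 5.63 and 5.85 on the ZS arrays (fell by 0.67, SE 0.19, adjusted p = 0.0136).

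Among the remaining effectors that passed, Herc6, the ligase that attaches ISG15 in mice, ran from 3.29 through 3.84 to 3.97 in ZD knockout rats, against 4.15, 3.71, 5.08 and 4.64 on the ZS arrays (fell by 0.62, SE 0.17, adjusted p = 0.00941). Ifi35 ran from 7.52 through 7.65 to 7.86 in ZD knockout rats, against 7.94, 7.84, 8.24 and 8.02 on the ZS arrays (fell by 0.33, SE 0.09, adjusted p = 0.0121). Slfn4 ran from 4.86 through 5.94 to 6.38 in ZD knockout rats, against 7.17, 5.81, 7.77 and 7.54 on the ZS arrays, with ZS array 31 in the middle of the ZD range (fell by 1.28, SE 0.39, adjusted p = 0.0193). Its second probe set gave a difference of 0.14.

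Several of the best known type I response genes did not pass. Rsad2, which encodes viperin, lay between 3.84 and 4.17 in ZD knockout rats, against 4.19, 4.15, 4.08 and 6.49 on ZS arrays 30 to 33 (-0.75, adjusted p = 0.0577), so that array 33 alone was high. The ubiquitin-like modifier gene Isg15 (-0.57, adjusted p = 0.0644), Irf7 (-0.49, adjusted p = 0.0593), Oas1a (-0.52, adjusted p = 0.0704) and its relative Oasl (-0.27, adjusted p = 0.0652) were likewise highest on array 33. Usp18, the protease that removes ISG15 and dampens signalling, differed by -0.20, and the RNA sensor genes Ifih1 and Dhx58 by -0.18 and -0.02. Only Mx2 (1.27), Trim25 (0.74) and Ifit2 (0.60) had a change above 0, and none of these passed.

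Without arrays 32 and 33, which left 2 ZS knockout rats, 0 of 31 members fell and 0 rose with limma (3.42% of all genes fell and 2.18% rose), with 2770 genes, 3 of them members, at an unadjusted p under 0.05. The median of the members was -0.19 and 25 of 31 remained below 0, beside a median of -0.016 over all genes. Igtp stood at -0.59 (SE 0.19, adjusted p = 0.0766), Irf1 at -0.63 (SE 0.22, adjusted p = 0.0965) and Stat2 at -0.26 (SE 0.10, adjusted p = 0.12), while Mx1, Cmpk2, Herc6 and Parp14 shrank to -0.22, -0.09, -0.16 and -0.14. Stat2, Gbp2 and Oasl then had all ZD arrays below both ZS arrays, beside 11.7% of all genes. Leaving out array 32 alone left 5 members that fell, Igtp, Stat2, Mx1, Irf1 and Rsad2. Leaving out array 33 alone left 13, which included Psmb9, Tap1 and Tap2 but not Cmpk2 or Slfn4. The share of all genes that fell in either of these fits is not given here, so these counts describe the members only.

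Arrays 32 and 33 did not have the same genes raised, as the plot of array 33 against array 32 shows. Relative to the mean of arrays 30 and 31, array 32 was more than 1 log2 unit higher in 11 of 31 members (35.5%), against 4.50% of all genes, and array 33 in 9 of 31 (29.0%), against 0.26% of all genes. Only 4 members, Mx1, Ifi44l, Slfn4 and Cmpk2, exceeded 1 on both arrays. On array 32 the others were Igtp (1.85), Psmb9 (1.75), Irf1 (1.72), Psmb8 (1.61), Gbp2 (1.51), Parp14 (1.27) and Herc6 (1.15). On array 33 they were Rsad2 (2.32), Mx2 (1.86), Usp18 (1.35), Irf7 (1.16) and Isg15 (1.06). Arrays 30 and 31 themselves differed widely in some members. Mx2 stood at 7.61 and 4.74 on them, against 8.04 on array 33. Slfn4 stood at 7.17 and 5.81 on them, against 7.77 and 7.54 on arrays 32 and 33.

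**Figure D3:**
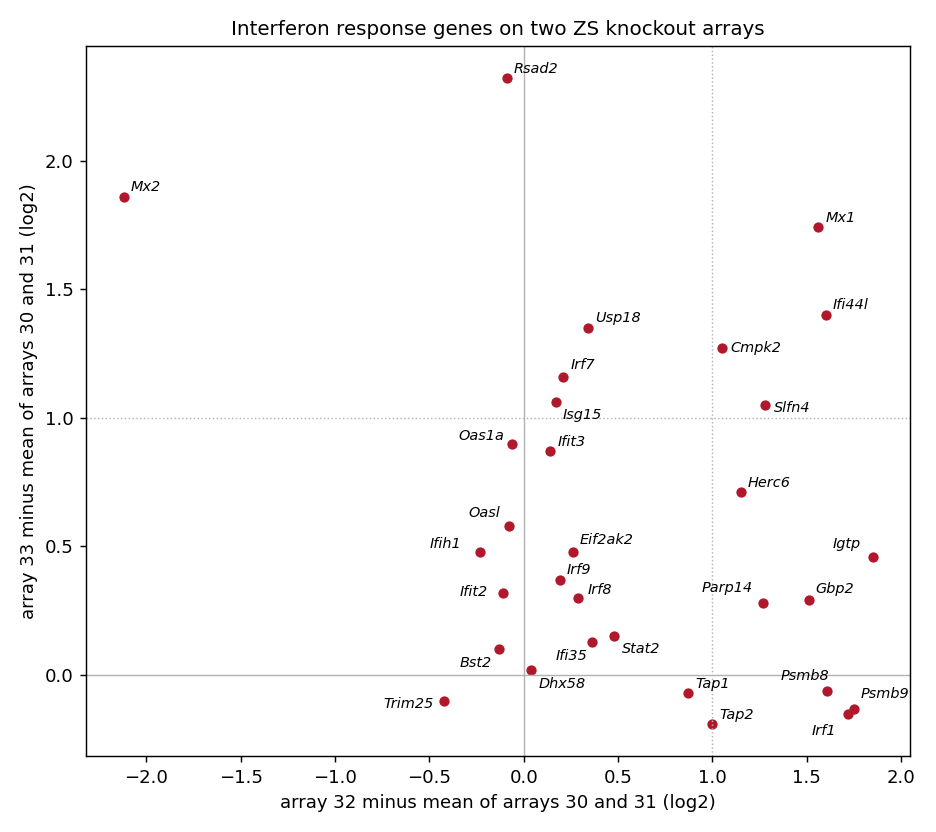
Each point is 1 of the 31 interferon response genes, placed by its log2 level on ZS knockout array 32 (horizontal) and array 33 (vertical), each minus the mean of ZS knockout arrays 30 and 31; dotted lines mark a difference of 1. Irf1, the immunoproteasome genes, Gbp2 and Igtp lie to the right, Rsad2, Usp18, Irf7 and Isg15 at the top, and Mx1, Ifi44l, Cmpk2 and Slfn4 in the upper right corner.

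Several members raised on 1 of these arrays were near the mean of arrays 30 and 31 on the other. Array 33 differed by -0.15 for Irf1, -0.06 for Psmb8 and -0.13 for Psmb9, all genes more than 1 unit higher on array 32. Array 32 differed by -0.09 for Rsad2, 0.17 for Isg15 and 0.21 for Irf7, all genes more than 1 unit higher on array 33. Mx2 was an exception, at -2.12 on array 32 and 1.86 on array 33, though arrays 30 and 31 themselves lay far apart.

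Leukocyte markers were also high on array 32. The mean of 7 such genes ran from 7.94 to 8.46 in ZD knockout rats, against 10.34 on ZS array 32 and 8.16, 8.99 and 8.56 on ZS arrays 30, 31 and 33. The macrophage and dendritic cell markers averaged 6.48 to 7.10 in ZD knockout rats, against 8.70 on array 32 and 6.85, 7.65 and 7.46 on arrays 30, 31 and 33, and the T, natural killer and B cell markers 4.67 to 4.87 in ZD knockout rats, against 6.27 on array 32 and 4.64, 5.16 and 4.76 on the others. Ptprc, the pan-leukocyte phosphatase CD45, ran from 7.17 to 8.00 in ZD knockout rats, against 10.52 on array 32 and 7.48, 8.50 and 7.74 on arrays 30, 31 and 33. The mean of the members was 7.03 on array 33, 6.99 on array 32 and 6.39 on array 31. The leukocyte mean of array 33 was below that of array 31 and above those of all ZD knockout rats. Neutrophil markers were instead lowest on array 32, with a mean of 4.10. Their mean was 5.26, 5.05 and 6.04 on arrays 30, 31 and 33, and 4.98 to 6.52 in ZD knockout rats. Other markers of array 32 also stood apart among the ZS knockout rats. Its smooth muscle mean was 11.36, against 10.80, 10.71 and 10.44 on arrays 30, 31 and 33. Its squamous epithelium mean was 12.23, against 12.57, 12.40 and 12.51. The part of these cells in the values was not tested.

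**Figure D4:**
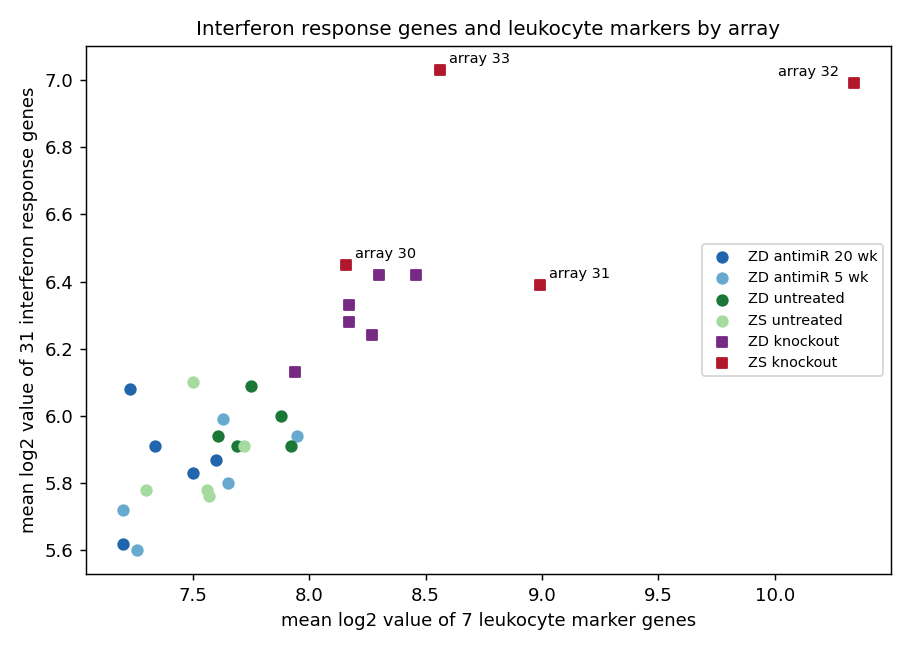
Each point is 1 array, with the mean log2 value of 7 leukocyte marker genes on the horizontal axis and that of the 31 interferon response genes on the vertical axis; squares are knockout rats and circles unedited rats, and the 2 sets were not on a shared scale. Array 32 lies at the upper right (10.34, 6.99) and array 33 at the top (8.56, 7.03).

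Several marker genes of other cells also fell. Of the leukocyte markers 4 of 7 fell in ZD relative to ZS knockout rats, of the macrophage and dendritic cell markers 8 of 14, and of the T, natural killer and B cell markers 4 of 19, beside 12.0% of all genes. Without arrays 32 and 33 these counts were 1, 1 and 0, beside 3.42% of all genes, with Laptm5 (-0.54, adjusted p = 0.0454) and the complement gene C1qc (-0.81, adjusted p = 0.0409) still lower. Of 6 measured neutrophil markers 1 fell and 1 rose in ZD relative to ZS knockout rats, with a median change of 0.41. The shares of all genes were 12.0% and 9.47%. Smooth muscle markers fell in 5 of 12, with group ranges of 9.04 to 10.62 in ZD and 10.44 to 11.36 in ZS knockout rats.

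Whether the diet effect differed between knockout and unedited rats was tested as the difference of the 2 diet effects. Of the members 3 had a lower diet effect in knockout than in unedited rats and 0 a higher one (4.61% of all genes lower and 3.78% higher). These were Slfn4 (-2.50, SE 0.54, adjusted p = 0.00614), Igtp (-1.16, SE 0.34, adjusted p = 0.0329) and Psmb8 (-1.17, SE 0.35, adjusted p = 0.037). For Slfn4 the diet effect was -1.28 in knockout rats and 1.22 in unedited rats, so that its brightest probe set moved in opposite directions. The effect in knockout rats was -0.70 with arrays 32 and 33 left out, and did not pass (limma adjusted p = 0.448). The dimmer second probe set of Slfn4 gave differences of 0.14 in knockout and 0.07 in unedited rats. Without arrays 32 and 33 no member passed with limma, beside 1.12% of all genes that were lower and 0.71% that were higher, and 4 members were under 0.05 before adjustment. The values were then -1.92 for Slfn4 (adjusted p = 0.0952), -0.58 for Igtp and -0.78 for Psmb8. Since experiment and genotype changed together, they cannot be told apart in this comparison.

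The levels of the members in the 2 sets are set side by side with no test, since genotype, experiment and normalization cannot be told apart. The median difference between the knockout and the unedited median was 0.53 over the members and 0.26 over all genes. In 7 of 31 members (22.6%), Irf1, Stat2, Psmb9, Tap2, Parp14, Ifi35 and Igtp, all knockout arrays lay above all unedited arrays, beside 14.8% of all genes. Irf1 had a lowest, median and highest value of 6.08, 6.68 and 8.83 on knockout arrays and 4.49, 4.97 and 5.53 on unedited arrays. The mean over members ran from 6.13 to 6.42 in ZD knockout rats and from 6.39 to 7.03 in ZS knockout rats, and from 5.60 to 6.10 over all unedited rats.

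**Figure D5:**
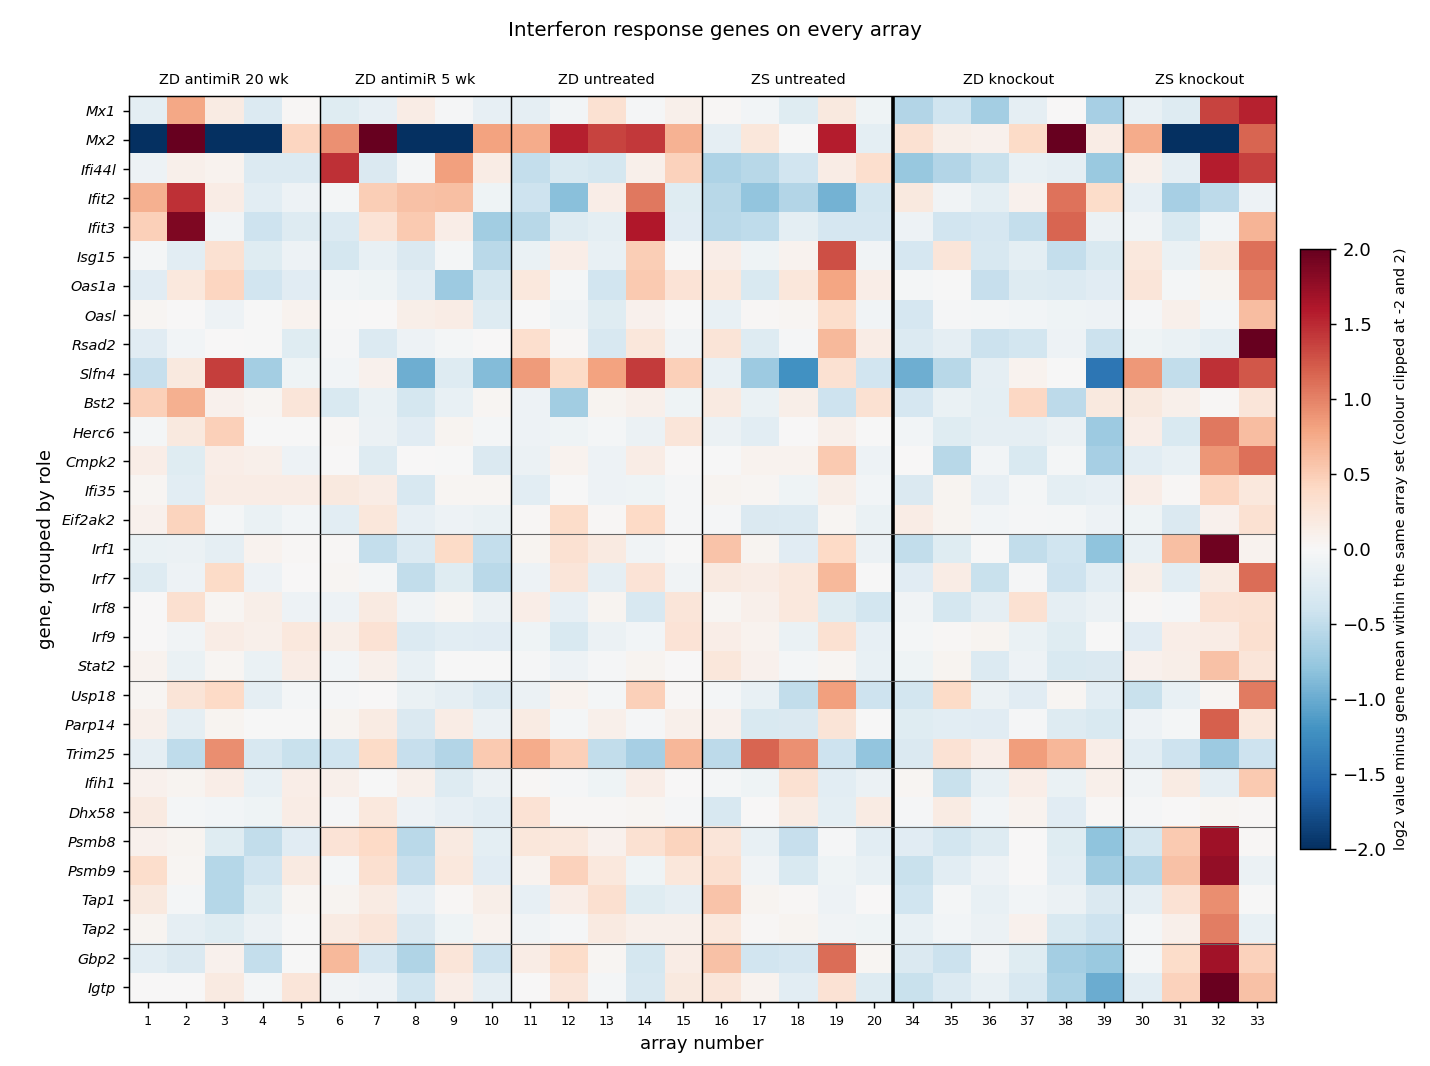
Log2 value of each of the 31 interferon response genes on each of the 30 arrays, minus the gene's mean over the 20 unedited or the 10 knockout arrays, with genes in rows by role (antiviral effectors, transcription factors, regulators, RNA sensors, antigen processing, GTPases) and arrays in columns by group; colour stops at differences of 2. Dark red blocks mark array 32 in the lower rows and array 33 in the upper rows, and Mx2 alternates between high and low rats.

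Single unedited rats also had several members raised together. ZS array 19 held the highest value of its group in 17 of 31 members, against 25.6% of all genes, with Mx2 at 8.24, Isg15 at 6.94, Usp18 at 5.80, Gbp2 at 6.16 and Rsad2 at 4.56. The other 4 ZS rats had 6.48 to 6.90 for Mx2 and 5.57 to 5.79 for Isg15. ZD array 14 held the highest value in 13 of 31 members, against 23.4% of all genes, and 5-week antimiR array 7 in 13, against 14.8%. The lowest value of the group was on array 19 in 4 members, on array 14 in 8 and on array 7 in 3. Array 14 was thus high in some members and low in others.

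A pair of neighbouring effectors, Ifit2 and Ifit3, had its own high rats. Ifit3, whose product joins other IFIT proteins on foreign RNA, stood at 6.26 on 20-week antimiR array 2, at 5.99 on untreated ZD array 14 and at 5.61 on ZD knockout array 38, and at 5.13 or below on all other arrays. Ifit2 was 10.76, 10.34 and 9.97 on the same 3 arrays, each the highest of its group. Mx1 was also the highest of its group on arrays 2 and 38, at 5.46 and 5.29, but not on array 14, at 4.65. On array 33, where Rsad2 and Isg15 were high, Ifit2 was 8.79 and inside the range of the ZD knockout rats. Trim25, the ligase that activates the RNA sensor RIG-I, ran from 7.25 to 9.19 among unedited rats with no group apart.

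Among the upstream genes of the pathway, the interferons themselves were dim. Ifnb1, the type I interferon beta, lay between 3.46 and 3.73 in ZD and 3.58 and 3.73 in ZS knockout rats, and Ifng between 2.51 and 2.88 and between 2.59 and 2.80, well under the array medians on all of them, arrays 32 and 33 included. The counts of upstream genes that follow stand beside 12.0% of all genes that fell and 9.47% that rose with diet in knockout rats. In unedited rats these shares were 6.95% and 6.94%. Of 9 measured ligand and receptor genes 1 fell in ZD relative to ZS knockout rats. It was the interferon gamma receptor Ifngr1 (-0.33, adjusted p = 0.0327, and -0.16 without arrays 32 and 33). In untreated ZD relative to ZS rats 1 of the 9 fell, the lambda receptor Ifnlr1 (-0.62, adjusted p = 0.0227). Of 11 signalling genes Irf3, the factor that starts interferon transcription, fell on the ZD diet in both settings. In knockout rats Irf3 ran from 8.95 to 9.34 on ZD, against 9.79, 9.71, 9.84 and 9.71 on ZS (-0.65, adjusted p = 1.27e-06; -0.64, adjusted p = 0.00027 without arrays 32 and 33). In unedited rats it stood at 8.42, 8.44, 8.69, 8.49 and 8.46 on ZD, against 8.95, 8.77, 8.80, 8.87 and 8.82 on ZS (-0.34, adjusted p = 0.00239), and the receptor kinase gene Tyk2 rose by 0.44 (adjusted p = 0.0197). Of 8 genes that sense nucleic acids, the adaptor gene Myd88 rose in ZD relative to ZS knockout rats (0.40, adjusted p = 0.0183) and Sting1 fell (-0.75, adjusted p = 0.0219), and neither passed without arrays 32 and 33. In untreated ZD relative to ZS rats 1 of the 8 fell, the adaptor gene Mavs (-0.38, adjusted p = 0.0169).

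A second list held 40 further measured interferon-stimulated genes. In knockout rats 20 of 40 fell on ZD relative to ZS and 0 rose (median -0.45; 12.0% of all genes fell). Without arrays 32 and 33 there were 5, beside 3.42% of all genes: the secreted glycoprotein gene Lgals3bp (-0.97, adjusted p = 0.00885), the galectin gene Lgals9 (-0.54, adjusted p = 0.00774), the RNA sensor gene Znfx1 (-0.53, adjusted p = 0.0306), the nuclear repressor gene Daxx (-0.38, adjusted p = 0.0116) and Parp10 (-0.67, adjusted p = 0.0429). Lgals3bp ran from 5.91 to 6.87 in ZD knockout rats, against 7.32, 7.48, 8.27 and 7.67 on the ZS arrays, so that the groups did not overlap. In unedited rats 1 of the 40 rose on ZD, Parp12 (0.81, adjusted p = 0.000413), and 3 fell, Sp100 (-0.73), Trim14 (-0.80) and Isg20 (-0.46), beside 6.94% of all genes that rose and 6.95% that fell. None of the 40 passed after 5 or 20 weeks of antimiR relative to untreated ZD rats.

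Among the chemokines that interferon gamma induces to draw T cells, Cxcl9 ran from 4.19 to 5.39 in ZD knockout rats, against 4.30, 6.50, 8.17 and 4.53 on ZS arrays 30 to 33. Cxcl10 ran from 4.17 to 5.37 in ZD knockout rats, against 3.78, 5.27, 6.89 and 5.58 on the ZS arrays. Both were highest on array 32, and array 33 had Cxcl9 near array 30. Of 16 measured genes of MHC class I presentation 6 fell in ZD relative to ZS knockout rats and 2 rose, beside 12.0% and 9.47% of all genes, and without arrays 32 and 33 none of the 16 passed with limma. The ones that fell were RT1-S3 (-1.07), RT1-CE10 (-0.51), RT1-M3-1 (-0.52), Tapbp (-0.38), the light chain gene B2m (-0.39) and Psme1 (-0.25), and the chaperone genes Calr (0.33) and Pdia3 (0.22) rose. RT1 genes are near-identical copies that may share probes, so their values cannot be assigned to single loci. Calr fell by 0.37 after 20 weeks of antimiR relative to untreated ZD rats (adjusted p = 0.0278), the only 1 of the 16 that passed there.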

How the data were processed

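Each of 30 rats gave 1 Affymetrix array of oesophageal epithelium. The deposited values are log2 signals of 31099 probe sets, made by the authors with Affymetrix Expression Console and RMA, per the submitters' processing notes, whose versions are not given in the sources used here. Values ran from 2.11 to 14.51. Of the probe sets 20826 had 1 gene symbol, 436 several and 9780 none, and 57 were controls; symbols were updated by gene ID for 20758. The probe set with the highest mean stood for each of 14217 genes. RMA shrinks differences of dim genes, and array values give no read depth.

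All 30 arrays were fitted together with limma 3.58.1 in R 4.3.3 (lmFit and eBayes, group means, 6 contrasts), with Benjamini-Hochberg adjustment over all genes at 0.05. Rats are labelled as separate samples, so p-values measure the spread between rats, by 1 estimate per gene pooled over all 30 arrays. Groups could differ in that spread. The SD of Igtp was 0.92 in ZS and 0.30 in ZD knockout rats, and 0.12 to 0.26 in the unedited groups. The labels' groups were used, and no column was left unused. Members and gene lists were chosen with earlier results of these data known. Any member could be named; values on every array are given for members that passed or, where fewer than 3 passed, for the 3 with the smallest adjusted p, and of the other lists mainly for members that passed. Cxcl9, Cxcl10, Ptprc and the members described for single raised arrays were named after their values were seen. Alternatives were median centring, quantile normalization, leaving out the dimmest 30% of genes, the mean of all probe sets, array weights, a trended robust variance, only the groups compared, each array left out, and arrays 32 and 33 left out. On simulated data for the diet contrast in knockout rats, 93 of 100 genes changed by 1 and 62 of 100 changed by 0.5 were recovered. The simulation gave every group the same spread per gene and independent noise. The SD of Psmb9 was 1.02 in ZS and 0.25 in ZD knockout rats, so these rates may not hold for such members. Promoters came from RefSeq (GRCr8).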

Additional observations from a re-analysis of the deposited data

Results flagged for a closer look

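The difference of the diet effects between knockout and unedited rats passed for Slfn4 (-2.50), Igtp (-1.16) and Psmb8 (-1.17), and for none of the 31 members without arrays 32 and 33.

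Single arrays stood apart from the rest of their group in 16 of 186 pairs of member and group, 13 high and 3 low, by the gap to the nearest array relative to the group's range; chance gives about 1 in 20. On ZS array 19 these were Mx2 at 8.24, Isg15 at 6.94 and Cmpk2 at 4.32, and on ZS array 16 Tap1 at 7.67. On ZD knockout array 38 they were Mx2 at 8.87 and Ifit3 at 5.61. On the other ZD knockout arrays, Oasl was 4.04 on array 34, Parp14 was 6.96 on array 37 and Herc6 was 3.29 on array 39. On ZS knockout array 33 Rsad2 was 6.49. In untreated ZD rats Ifit3 was 5.99 on array 14, Bst2 was 9.36 on array 12, Dhx58 was 4.39 on array 11 and Herc6 was 4.06 on array 15. In the antimiR groups Trim25 was 8.96 on 20-week array 3 and Eif2ak2 was 7.32 on 5-week array 7.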

How the results depend on the processing

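The count of members that fell in ZD relative to ZS knockout rats was 12, and 0 without arrays 32 and 33. It was 5 when only the groups compared were fitted, so that the spread came from the knockout arrays alone. In that fit 1 member, Trim25, rose (0.74, adjusted p = 0.035). With each array left out in turn, it ran from 5 (without ZS array 32) to 17 (without ZS array 30), with 15 without ZS array 31. For the difference of the diet effects, 3 members were lower, 0 without arrays 32 and 33 and 1 with only the groups compared; with each array left out, the count ran from 1 (without ZD array 12, ZS array 18, ZS knockout array 32 or ZD knockout array 39) to 9 (without ZS knockout array 30), with 7 without array 31. The count that rose in untreated ZD relative to ZS rats ran from 0 to 1 with each array left out. The share of all genes that passed is given above only for the full fit and for the fit without arrays 32 and 33. The other counts therefore cannot be set against such a share. No value that had passed changed sign under these alternatives. The median change over the members in untreated ZD relative to ZS rats, 0.04, turned to -0.04 without ZD array 15 or ZS array 20. The cause of these changes was not tested, beyond the smaller number of arrays. No paired analysis was possible because every rat has its own number, shared by no other group. Signals near the bottom of the scale, such as Ifnb1 and Ifng, limit what can be seen of those genes.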
